A study of Mus musculus with 6 samples.

Results

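Accessible chromatin around 10 genes of the Notch pathway was described in cultured mouse dermal fibroblasts profiled by ATAC-seq, which marks open DNA by transposase insertion. The genes were the receptors Notch1, Notch2, Notch3 and Notch4, the ligands Dll1, Dll4, Jag1 and Jag2, and the target genes Hes1 and Hey1. A peak belonged to a gene if its summit lay in the RefSeq span of the gene (build GRCm38.p6) or within 50 kb of either end. This took in 258 of the 204204 peaks of both lists, 127 of 98072 in the knockout list and 131 of 106132 in the wildtype list. The knockout cells (KO, 3 libraries) lacked Lap2alpha, a splice form of lamina-associated polypeptide 2 encoded by Tmpo, and the wildtype cells (WT, 3 libraries) were dermal fibroblasts. Both were grown in DMEM with 10% fetal calf serum and antibiotics. The labels name no strain, sex, age or allele for either genotype, do not say whether the libraries came from separate animals or cultures, and call the cells a cell line. Each genotype had 1 peak list for its 3 libraries, so no spread between replicates exists, no p-value was computed, and every difference below describes these lists. The sequencing depth is unknown. Whether a peak of 1 list was absent from the other genotype or only missed its threshold cannot be told apart.

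Notch receptors are membrane proteins that are cut when a Delta-like or Jagged ligand on a neighbouring cell binds them. The freed intracellular part enters the nucleus and joins the DNA-binding protein RBPJ and a Mastermind coactivator, and the complex turns on target genes such as Hes1 and Hey1, which encode basic helix-loop-helix repressors. In skin the pathway is known for roles in epidermal differentiation, hair follicles and blood vessels, and in dermal fibroblasts for effects on their activation and fate.

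The cell type was checked on marker genes. Of 10 fibroblast markers, 9 had a peak within 1 kb of a gene end in both lists, among them Pdgfra, Twist2 and Col1a2, and Lum had none in either list. Over all protein-coding genes the share with such a peak in both lists was 56.1%. This was so for 5 of 6 mural cell markers, 4 of 6 Schwann cell and melanocyte markers, and 2 of 6 markers each of endothelium, keratinocytes and leukocytes. Pecam1, Kdr and Ptprc, which define endothelium and leukocytes, lacked such a peak in KO and in WT. The windows of the endothelial markers held 5 KO-only and 13 WT-only peaks (10.9% of their KO and 24.5% of their WT peaks), and those of the keratinocyte markers 1 and 11 (1.89% and 17.5%). The fibroblast marker windows held 32 KO-only and 16 WT-only peaks (18.5% and 10.1%). The mural cell windows held 12 and 18 (13.0% and 19.6%), and the leukocyte windows 8 and 11 (15.4% and 19.6%). The Schwann cell and melanocyte windows held 8 and 1 (14.5% and 2.08%). Over all peaks the shares were 13.4% KO-only and 20.4% WT-only, and over peaks within 50 kb of any protein-coding gene 12.4% and 18.8%. The part of cell makeup in the peaks of 1 list at the Notch genes was not tested. In the window of Tmpo there were 18 KO and 21 WT peaks, and its strongest peak had its summit at 91182106 on chromosome 10 in both lists. An open Tmpo gene end does not check the knockout, since other splice forms use the gene.

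The genes differed in whether their start lay in a peak, so the 250 bases before the start are shown for 5 of them, from the RefSeq promoter table of GRCm38.p6, 5′ to 3′ on the strand of the gene. Capitals mark bases that lay inside a WT peak. Dll4 and Notch4 and the outer start of Dll1 had their start base inside a WT peak and no KO peak, Jag2 had no peak near its start in either list, and Notch2 was covered in both lists. The table held 8 of the 10 genes. Hes1 and Hey1 had no entry, and their gene ends were used without strand.
Dll4 promoter, chr2:119325534-119325783, plus strand: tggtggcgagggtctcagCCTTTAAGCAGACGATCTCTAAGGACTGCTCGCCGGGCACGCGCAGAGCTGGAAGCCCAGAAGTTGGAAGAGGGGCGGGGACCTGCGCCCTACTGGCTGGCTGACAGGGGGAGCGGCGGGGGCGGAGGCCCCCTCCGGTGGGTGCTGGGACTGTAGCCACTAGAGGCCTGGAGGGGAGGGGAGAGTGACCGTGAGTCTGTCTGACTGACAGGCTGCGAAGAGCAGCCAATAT
Notch4 promoter, chr17:34564045-34564294, plus strand: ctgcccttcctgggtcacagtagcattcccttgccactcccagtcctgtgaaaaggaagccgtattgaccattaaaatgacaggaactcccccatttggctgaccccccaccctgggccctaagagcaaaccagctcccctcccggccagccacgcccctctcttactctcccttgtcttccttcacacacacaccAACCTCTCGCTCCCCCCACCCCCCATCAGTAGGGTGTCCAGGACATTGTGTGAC
Dll1 outer promoter, chr17:15376933-15377182, minus strand: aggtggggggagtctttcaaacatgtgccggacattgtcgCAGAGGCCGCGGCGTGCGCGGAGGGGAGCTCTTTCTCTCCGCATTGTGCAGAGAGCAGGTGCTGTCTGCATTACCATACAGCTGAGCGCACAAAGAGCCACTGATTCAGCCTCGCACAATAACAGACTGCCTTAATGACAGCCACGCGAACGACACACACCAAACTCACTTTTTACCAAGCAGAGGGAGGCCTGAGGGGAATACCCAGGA
Jag2 promoter, chr12:112929496-112929745, minus strand: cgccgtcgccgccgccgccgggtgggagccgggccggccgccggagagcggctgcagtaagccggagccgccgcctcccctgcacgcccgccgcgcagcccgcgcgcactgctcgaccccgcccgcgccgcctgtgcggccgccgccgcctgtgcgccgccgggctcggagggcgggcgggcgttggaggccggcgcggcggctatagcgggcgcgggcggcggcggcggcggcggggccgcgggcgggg
Notch2 promoter, chr3:98013288-98013537, plus strand: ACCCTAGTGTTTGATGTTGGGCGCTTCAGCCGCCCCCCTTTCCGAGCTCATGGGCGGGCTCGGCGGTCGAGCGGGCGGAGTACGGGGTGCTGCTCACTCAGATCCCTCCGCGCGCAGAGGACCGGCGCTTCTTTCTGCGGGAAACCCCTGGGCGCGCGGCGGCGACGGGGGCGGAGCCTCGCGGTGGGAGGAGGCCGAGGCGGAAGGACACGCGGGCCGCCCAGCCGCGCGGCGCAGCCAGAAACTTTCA

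Most peaks at the Notch genes were called in both genotypes. With 1 bp in common taken as enough for sharing, 114 of 127 KO peaks and 116 of 131 WT peaks had a partner. That is 89.8% of KO peaks (95% Wilson interval 83.3 to 93.9) and 88.5% of WT peaks (82.0 to 92.9). The intervals cover counting error only, since neighbouring peaks are not independent and libraries were combined. KO-only peaks made up 10.2% of the KO peaks, against a background of 13.4% of all KO peaks and 12.4% of those within 50 kb of any protein-coding gene. WT-only peaks made up 11.5% of the WT peaks, against 20.4% of all WT peaks and 18.8% of those near genes. Partners also had nearly the same summit, with a median distance of 20.5 bp from the KO side and 21.5 bp from the WT side.

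At least 1 KO-only peak was found at 7 of the 10 genes, against 47.5% of all genes, and at least 1 WT-only peak at 6 of 10, against 65.8%. These shares were not matched for the number of peaks in a window. The member windows held between 2 (Hey1) and 21 KO peaks (Notch1 and Notch2), against a median of 9 over all genes. There were more KO than WT peaks at 3 genes, against 24.8% of all genes, and fewer at 4, against 45.5%. By role, KO-only peaks were 9 of 72 at the receptors (12.5%), 4 of 42 at the ligands (9.52%) and 0 of 13 at the targets. WT-only peaks were 11 of 77 (14.3%), 3 of 41 (7.32%) and 1 of 13 (7.69%). Over all peaks near genes the shares were 12.4% KO-only and 18.8% WT-only. By position, 8 of 92 KO peaks (8.70%) and 8 of 94 WT peaks (8.51%) in the flanks were of 1 list. Near a start or gene end these were 2 of 10 KO peaks and 3 of 13 WT peaks, and elsewhere in the gene 3 of 25 and 4 of 24. The peaks near starts and ends are few, and their Wilson intervals overlap those of the flanks. No share over all peaks of the same position is given here, so no difference between positions is read from these counts. For 68 of 127 KO and 69 of 131 WT peaks the nearest gene end was that of the Notch gene, and the others lay closer to a neighbour.

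**Figure D1:**
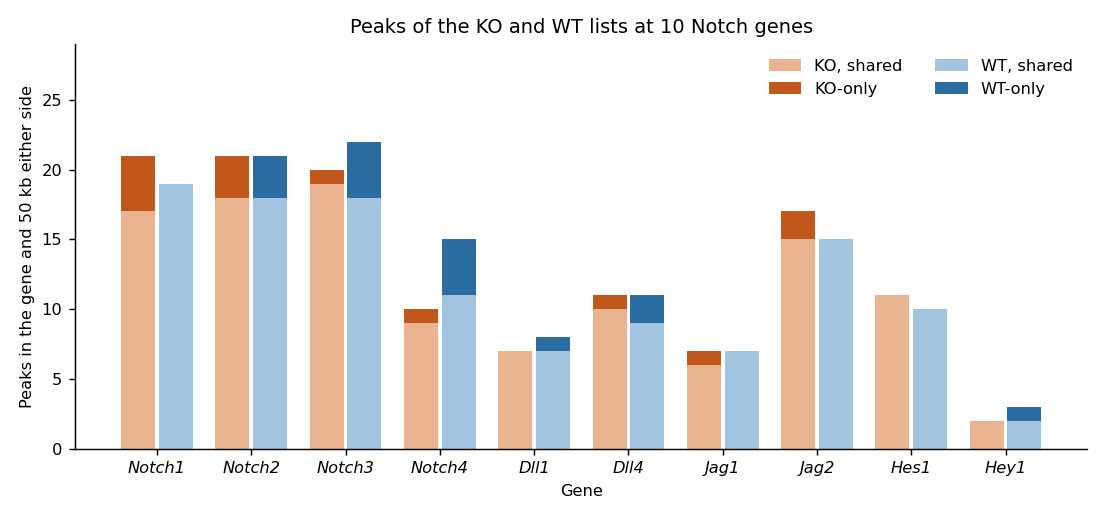
Peaks per gene window in KO (left bar of each pair) and WT (right bar), with shared peaks pale and peaks of 1 list dark. Notch1 had 4 KO-only and 0 WT-only peaks, Notch3 and Notch4 each had 1 in KO only against 4 in WT only, and Hes1 had none of either kind. With a flank of 10 kb the counts at Notch3 and Notch4 were equal in KO and WT.

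The peaks of 1 list were weak within that list. The authors' signal per peak was used only as a percentile of the peak's own list, where 100 is the strongest. The 13 KO-only peaks had a median percentile of 12.7 and a highest of 29.8, against a median of 60.2 for the shared KO peaks. The 15 WT-only peaks had a median of 11.2 and a highest of 43.5, against 64.8 for the shared WT peaks. All 19 KO and all 17 WT peaks at or above percentile 90 were shared. The same split held over the whole lists, where the medians were 16.5 for KO-only and 17.8 for WT-only peaks. KO-only peaks had a median width of 230 bp and WT-only peaks one of 184 bp, while shared peaks had medians of 668 bp in KO and 702 bp in WT. The sources used here do not say whether the signal of a peak grows with its width. Low signal and small width are therefore not counted as separate findings. A narrow peak also has less room to overlap a peak of the other list.

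**Figure D2:**
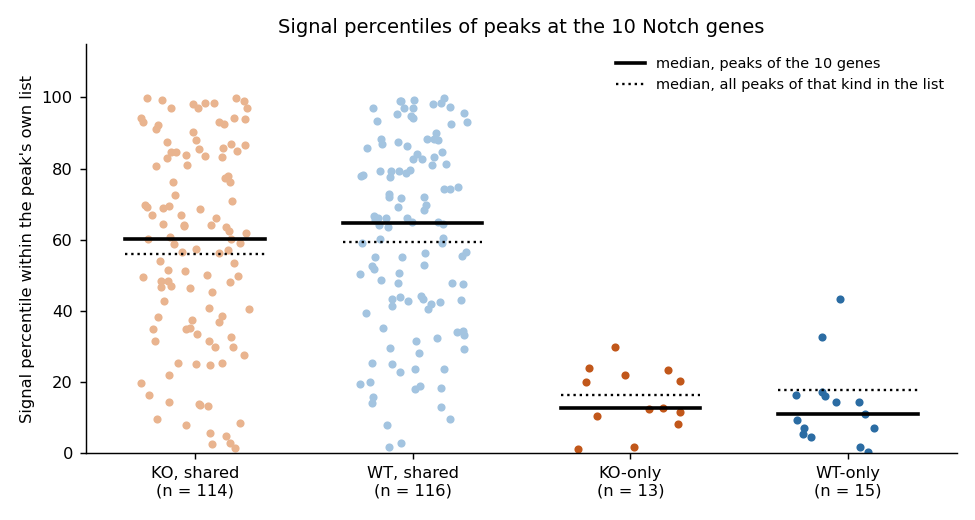
Signal percentile of each peak of the 10 windows within its own list (dots), for shared peaks and for KO-only and WT-only peaks. Solid lines are medians over these peaks, dotted lines medians over all peaks of that kind, and no genotype-only peak lies above percentile 43.5.

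Notch1 encodes the receptor best known for epidermal differentiation and lies on chromosome 2 from 26457902 to 26503822. Of the 10 genes it had the largest excess of KO-only over WT-only peaks, and its peaks were wider in KO. There were 21 KO and 19 WT peaks, with 4 KO-only and 0 WT-only. An excess of 4 or more KO-only peaks was found at 3.39% of 21887 protein-coding genes. Most of those windows had less room for such an excess, since the median window held 9 KO peaks. No more KO peaks than at Notch1 were found at 93.7% of genes. The 10 Mb block of Notch1 held 596 KO and 564 WT peaks, or 106% of the WT number, while in the blocks of the other 9 genes the ratio was between 69.3% and 98.0%. The strongest KO-only peak, at percentile 21.9, ran from 26516347 to 26516602, with its summit 12705 bp upstream of the start. The others lay at the 3′ end of the gene, 2835 bp inside its start, and far upstream on the side of Egfl7, at percentiles of 10.5, 1.73 and 11.7.

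Peak width at Notch1 went the same way. KO peaks covered 20.5 kb of the window and WT peaks 13.7 kb, so KO reached 150% of the WT length. Of 16670 genes with at least 2 kb of WT peaks, 1.93% had a ratio as high, and the median was 93.0%. The KO peaks covered 99.3% of the WT length, while the WT peaks covered 66.4% of the KO length. Of 15 pairs of 1 KO and 1 WT peak, the KO peak was the wider in 14, whereas it was wider in 47.0% of all 75840 such pairs. The ratio was not limited to Notch1. In the 10 Mb block around the gene, outside the window, KO peaks reached 123% of the WT length, and the KO peak was the wider in 320 of 431 pairs. In the 1 Mb on each side it was the wider in 101 of 136 pairs. The width at Notch1 cannot be told apart from that of its region.

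Single elements upstream of Notch1 show this difference. The peak 3940 bp upstream of the start spanned 2118 bp in KO and 1759 bp in WT. A peak 22073 bp upstream spanned 1378 bp in KO and 642 bp in WT, and another, 30979 bp upstream, spanned 1394 bp in KO and 550 bp in WT. At 26226 bp upstream, 1 KO peak of 1301 bp overlapped 2 WT peaks of 694 bp and 158 bp. The start base itself lay outside the peaks of both lists. The nearest peak ended 174 bp inside the gene in KO and 145 bp inside it in WT, at percentiles of 68.7 and 32.4 of lists of unequal length. The strongest peak of the window, at percentiles of 98.9 in KO and 97.0 in WT, lay at the gene end of Sec16a, a neighbour that encodes a secretory pathway protein. This peak also overlaps the lncRNA gene 0610009E02Rik, as does the KO-only peak at the 3′ end of Notch1.

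**Figure D3:**
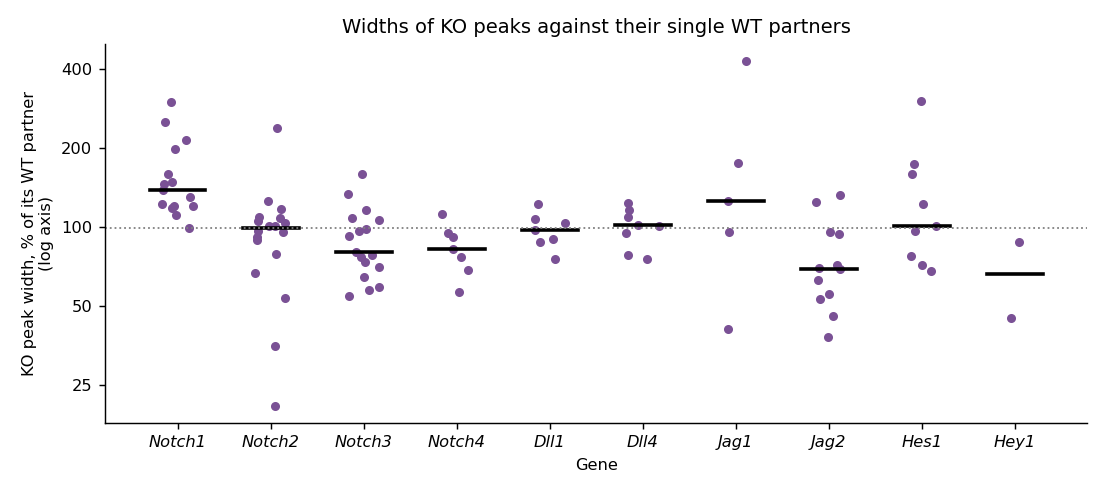
Width of each KO peak as a percentage of its single WT partner (log axis), by gene. Black bars are medians per gene and the dotted line is the median of all pairs in the lists, 99.0%. In the Notch1 window 14 of 15 KO peaks are wider than their partners, and in the Jag2 window 10 of 12 are narrower. Over all pairs the KO peak is narrower in 39777 of 75840. In the rest of the 10 Mb block of Jag2 it is the wider in 134 of 298 pairs. Only 1 of the 17 KO peaks in the Jag2 window is nearest to an end of Jag2.

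Notch2, the longest of the 10 genes at 137 kb, lies on chromosome 3 from 98013538 to 98150367 and carried several strong shared peaks. It had 21 peaks in each list, with 3 KO-only and 3 WT-only. The start was covered by a peak of 2582 bp in KO and 2676 bp in WT, at percentiles of 98.1 and 98.2, with summits 78 bp and 58 bp from the start. Inside the gene, peaks with summits 11283 bp, 29716 bp, 43486 bp and 50055 bp from the start in KO had percentiles of 97.0, 93.1, 96.9 and 92.3. Their WT partners had percentiles of 97.0, 94.8, 97.1 and 94.3. The first of these overlaps the lncRNA gene Gm40103. The KO-only peaks had percentiles of 20.2, 12.7 and 12.5, and the WT-only peaks 14.5, 17.3 and 32.6. The WT-only peaks lay 368 bp, 156 bp and 156 bp from the nearest KO peak, and the KO-only peak inside the gene at percentile 12.7 lay 141 bp from a WT peak.

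Notch3, the receptor known for its role in the mural cells of vessels, lies on chromosome 17 from 32120820 to 32166896. It had 20 KO and 22 WT peaks, with 1 KO-only and 4 WT-only. An excess of 3 or more WT-only peaks was common, at 18.0% of all genes. The difference at Notch3 was 0 with lists of equal length, with a flank of 10 kb, within the gene span and among peaks nearest to its own ends. The start was covered in both lists, by a weak peak of 397 bp in KO and 494 bp in WT at percentiles of 25.2 and 33.2. The KO-only peak lay 718 bp inside the start at percentile 23.4, 227 bp from the next WT peak. The strongest WT-only peak, at percentile 16.0, lay near Rrp1b, outside the gene. The strongest peak of the window was shared and lay 2974 bp past the 3′ end in KO and 2932 bp past it in WT, at percentiles of 98.5 and 99.0. This peak lies inside Gm38585, a lncRNA gene that overlaps Notch3. KO peaks were the wider in 5 of 17 pairs and covered 13.9 kb, against 16.5 kb in WT. In the rest of the 10 Mb block the KO peak was the wider in 165 of 475 pairs, and KO covered 89.3% of the WT length. In the 1 Mb on each side these were 42 of 97 pairs and 97.0%. The part of the region in the Notch3 value was not tested.

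Notch4, a receptor known from endothelium, lies on chromosome 17 from 34564286 to 34588543 in a gene-dense region with 9 other protein-coding genes in its window. It had 10 KO and 15 WT peaks, with 1 KO-only and 4 WT-only. The difference of -3 became 0 with a flank of 10 kb and -1 in 5 other alternatives. The start was covered only in WT, by a peak of 142 bp from 34564241 to 34564382 at percentile 9.46. The nearest KO peak was 7655 bp from the start. The strongest WT-only peak of the window, at percentile 43.5, lay 4151 bp from a gene end of Prrt1, and the KO-only peak, at percentile 8.18, lay 753 bp from one of Pbx2. Both lists shared a strong peak inside the 3′ end of Notch4, at percentiles of 94.1 in KO and 95.3 in WT. The strongest peak of the window, at 99.7 in KO and 98.9 in WT, lay nearest to Rnf5, a ubiquitin ligase gene.

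**Figure D4:**
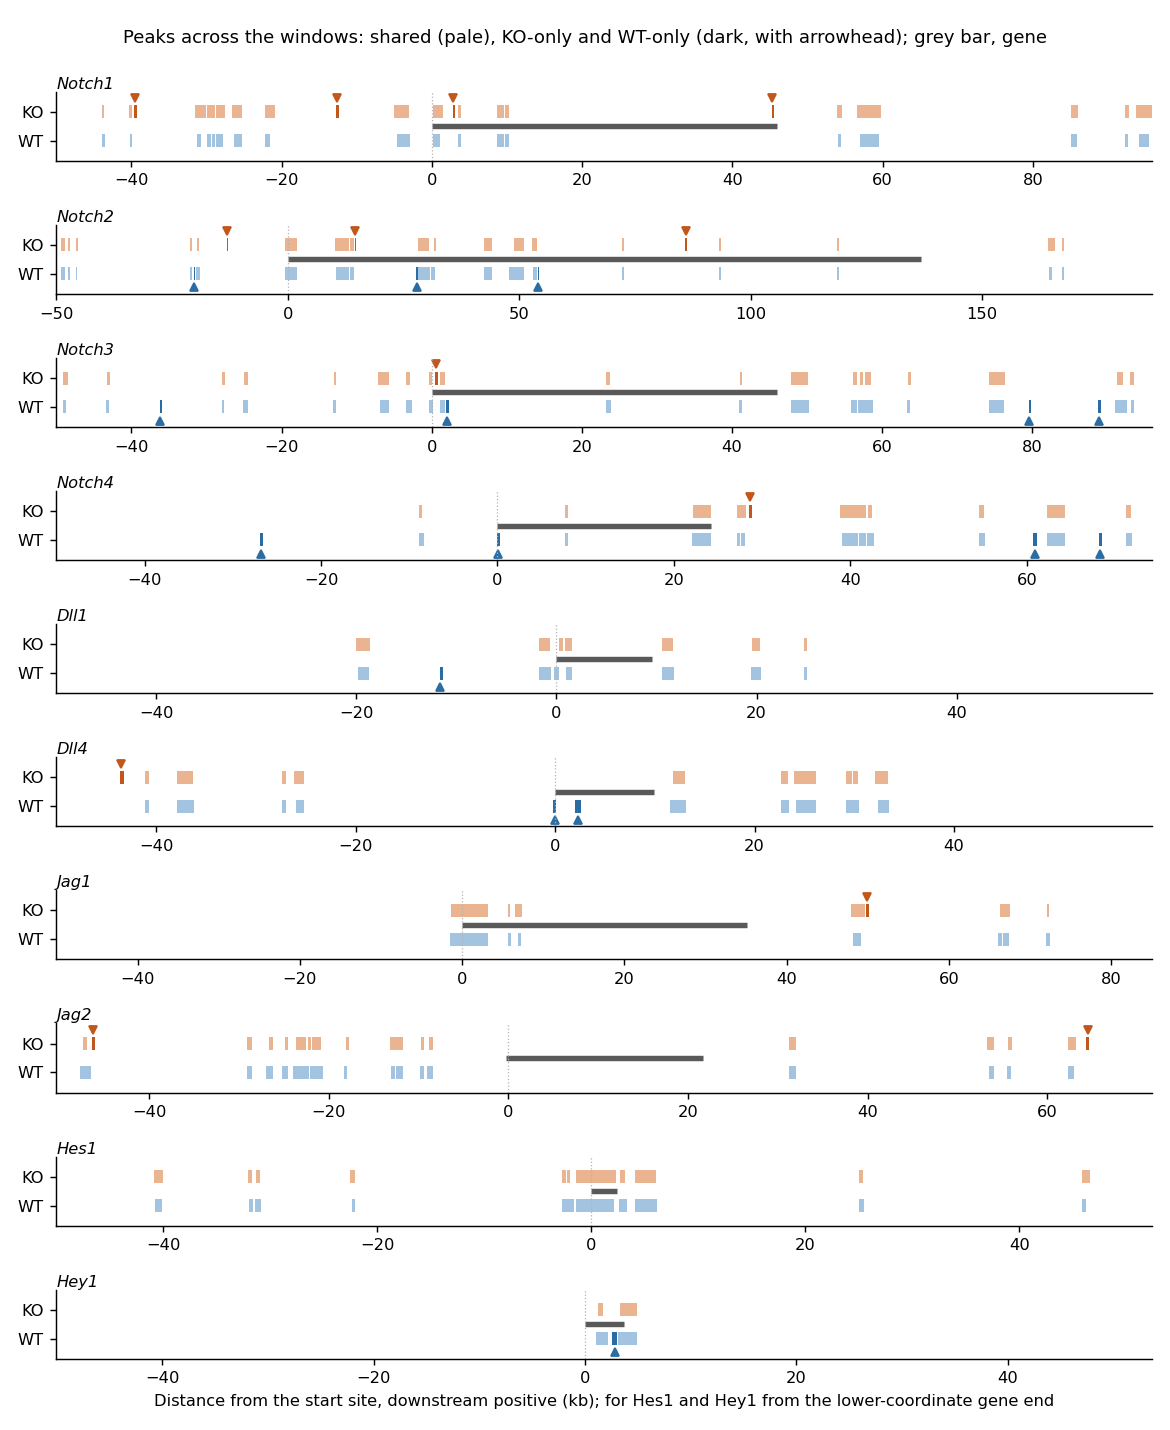
Peaks across each gene and 50 kb on either side, KO above WT, by distance from the start site in kb (for Hes1 and Hey1 from the lower-coordinate gene end). Pale blocks are shared peaks, dark blocks with arrowheads are peaks of 1 list, and grey bars are the genes. Dark blocks are scattered among shared ones, 4 of them in KO at Notch1 and 4 in WT at each of Notch3 and Notch4, where 3 of the 4 lie more than 10 kb from the gene.

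Among the ligands, Dll4, best known for its role in sprouting vessels, had peaks at the gene itself in WT only. It lies on chromosome 2 from 119325784 to 119335666. There were 11 peaks in each list, with 1 KO-only and 2 WT-only. The WT-only peaks ran from 119325552 to 119325916, over the start, and from 119327796 to 119328334, inside the gene. Their percentiles were 14.3 and 16.5, and the nearest KO peak lay 11828 bp from the start. The KO-only peak was at percentile 1.13 near Rhov. Gm14207, a lncRNA gene, overlaps the start of Dll4, so the peak there could belong to either gene. A shared peak lay 2435 bp past the 3′ end in both lists, at percentiles of 83.6 in KO and 88.3 in WT. The strongest peak of the window, at 98.4 in KO and 98.5 in WT, was at a gene end of Chac1, a glutathione-degrading enzyme gene. In the 10 Mb block KO had 89.4% of the WT peak number.

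Dll1, a ligand known from the somites and the nervous system, lies on chromosome 17 from 15367354 to 15376932 and has 2 annotated starts, at 15376932 (outer) and 15375823 (inner), on the minus strand. All 7 KO peaks of its window were shared, and 1 of 8 WT peaks was WT-only, at percentile 4.68. The inner start was covered in both lists, at percentiles of 42.9 in KO and 34.2 in WT. The outer start base was covered in WT only, by a peak from 15376689 to 15377142 at percentile 19.4. That peak counts as shared because it overlaps a KO peak that ended 216 bp short of the start. The strongest peak of the window, at 93.9 in KO and 93.1 in WT, was at a gene end of Fam120b.

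Jag1, a ligand expressed in many mesenchymal tissues, had the peak of highest percentile over a start among the 8 genes with a known start. It lies on chromosome 2 from 137081451 to 137116520, and 1 broad peak covered the start and the first part of the gene, 4463 bp wide in KO and 4674 bp wide in WT. Its percentile was 99.7 in KO and 99.9 in WT. The summit of this broad peak lay 2183 bp inside the gene in KO, and 329 bp upstream of the start in WT. There were 7 peaks in each list, with 1 KO-only, at percentile 24.1 and 651 bp from a WT peak, and 0 WT-only.

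Jag2, the other Jagged ligand, had no peak within 1 kb of its start or its gene ends in either list. It lies on chromosome 12 from 112907803 to 112929812, and the nearest peak to the start was 8438 bp away in KO and 8416 bp away in WT. Its window held 17 KO and 15 WT peaks, with 2 KO-only, at percentiles of 29.8 and 20.1, and 0 WT-only. Among all these peaks, 1 in each list was nearest to an end of Jag2, 9799 bp from it in KO and 9816 bp in WT, at percentiles of 72.5 and 68.4. The others clustered at Nudt14, Brf1, Gpr132 and Btbd6, and the strongest lay near Gpr132 in KO, at percentile 76.2, and near Brf1 in WT, at 84.7.

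Hes1, a repressor gene that Notch switches on directly, had no peak of 1 list only. It lies on chromosome 16 from 30065357 to 30067796, with no other protein-coding gene in its window. All 11 KO and all 10 WT peaks were shared. Over all genes, those with no peak in the window included, 21.0% had no peak of 1 list only. A broad peak covered its lower-coordinate end and most of the gene, 3678 bp wide in KO and 3624 bp wide in WT, at percentiles of 99.2 and 99.4. Flanking peaks with summits 3172 bp past the other end in KO and 2077 bp past it in WT had percentiles of 87.5 and 89.9. KO peaks covered 10.0 kb and WT peaks 10.1 kb. With only the stronger 50% of peaks kept in either list, however, 1 KO and 4 WT peaks of this window had no partner.

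Hey1, the other target, lies on chromosome 3 from 8663359 to 8667038 and had few peaks, 2 in KO and 3 in WT. Its upper-coordinate end was covered in both lists by a peak of 1575 bp in KO and 1797 bp in WT, at percentiles of 85.9 and 93.5. The protein-coding gene LOC115489673 overlaps that end, so the peak could belong to either. The WT-only peak, at percentile 5.50, lay inside the gene, 280 bp from a KO peak. KO peaks covered 2.07 kb and WT peaks 3.40 kb, a ratio of 60.9%. In the rest of the 10 Mb block the ratio was 66.1%, so the value at Hey1 cannot be told apart from that of its region.

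**Figure D5:**
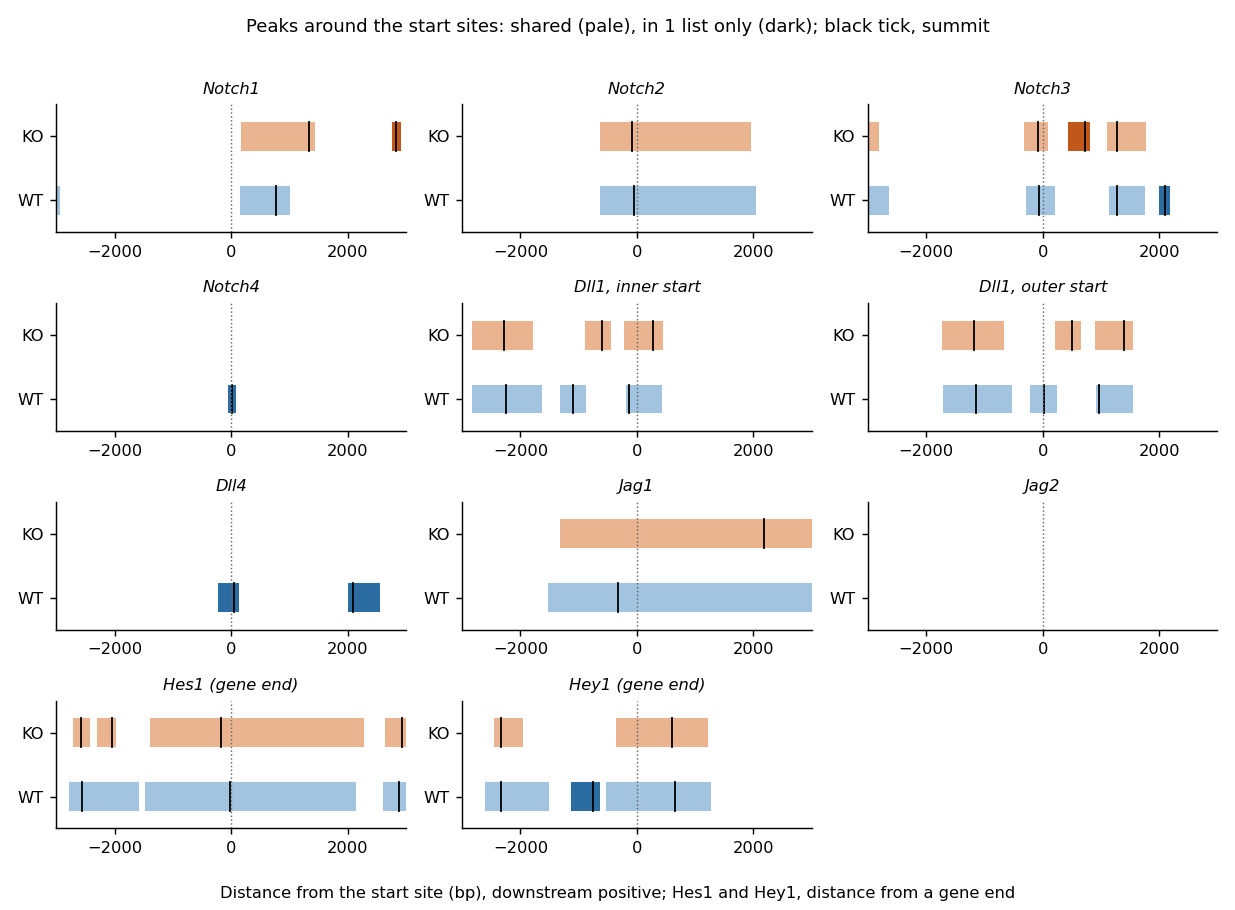
Peaks around each start site, KO above WT, with distance in bp and downstream positive (for Hes1 and Hey1 around a gene end without strand). Pale blocks are shared peaks, dark blocks peaks of 1 list and black ticks summits. Dll4 and Notch4 have a peak over the start in WT only, and Jag2 has none in either list.

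Over the 8 genes with a known start, 5 had a peak within 1 kb of it in each list, 2 (Dll4 and Notch4) had one in WT only, 0 had one in KO only, and Jag2 had none. Over 17492 protein-coding genes with a known start, the shares were 55.0% open in each list, 1.82% open in WT only, 0.823% open in KO only and 42.4% with no peak. Counting only genes whose start base was covered gave 4 members in each list, 2 in WT only, 0 in KO only and 2 with no cover, beside 51.0%, 1.58%, 0.777% and 46.6% of all genes. By a peak within 1 kb of either gene end, 8 of 10 members were open in each list, Dll4 in WT only and Jag2 in neither, beside 56.1%, 2.47% and 40.2% of all genes. The WT peaks at Dll4 and Notch4 are weak. When only the strongest 73554 peaks of either list were kept, no member differed at its start. With a stricter summit p, Notch1 was open in KO only and Notch3 in WT only, in place of those calls.

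The promoters were searched on both strands for letters of known motifs, over 300 bases from 250 before to 50 after the start. The core letters of the RBPJ site, TGGGAA, were in 0 of 9 member promoters and in 25.6% of all 32851 promoters. The AP-1 letters TGANTCA were in 2 of 9, against 7.81% of all. One match was TGATTCA at the outer Dll1 start, from -109 to -103, and the other TGACTCA at Notch4, from -4 to 3, counting the start base as 1. Both lie in bases covered by a WT peak and by no KO peak. The Hes N-box letters CACGAG were in the Notch3 promoter, 1 of 9 against 6.47% of all, and the E-box CACGTG was in 0 of 9 against 7.15%. None of these searched letters overlapped another match. The Jag2 promoter had 86.0% GC and 63 CpG pairs in 300 bases, against medians of 52.7% and 7 over all promoters, and the Dll4 and Notch4 promoters had 63.7% and 58.3% GC. Such matches describe the letters and do not show that a factor binds there.

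Other genes of the pathway held more WT-only than KO-only peaks, as did the lists as a whole. All 40 listed genes were found, and their windows held 58 KO-only and 106 WT-only peaks, 9.76% of their KO and 16.7% of their WT peaks (a peak in the windows of several genes counts in each). Both shares were below those of all peaks, 13.4% in KO and 20.4% in WT, and of peaks near genes, 12.4% and 18.8%. By gene, 10 had more KO-only peaks, 25 more WT-only peaks and 5 equal numbers. Over all genes, the excess was on the KO side at 22.9% and on the WT side at 46.6%, and the numbers were equal at 30.4%. The 10 Notch genes had 3, 5 and 2 in these classes, and a median difference of -0.5, KO-only minus WT-only, against 0 over all genes and -1.5 over the 40.

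Of the nuclear partners, those with large differences in either direction are named, so their unlike directions follow from that choice. Maml3, a coactivator of the Notch complex, had 8 KO-only and 3 WT-only peaks, while Maml2 had 2 and 7. Spen, a corepressor bound by RBPJ, held 0 KO-only and 5 WT-only peaks. Rbpj itself, named here after its values were seen, had 3 of each and an open start in both lists, at percentiles of 98.6 in KO and 98.2 in WT. The number of KO peaks in the 10 Mb block, relative to WT, was 77.3% at Maml2, 83.2% at Spen and 90.3% at Maml3.

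Genes that act on ligands and receptors were picked for large differences in the same way, so their unlike directions are not a result. Dll3, a divergent ligand, held 0 KO-only and 7 WT-only. Mib1, the ubiquitin ligase needed for ligand endocytosis, held 5 KO-only and 0 WT-only, on chromosome 18 in a block where KO had 109% of the WT peak number. Adam10, the protease of the first receptor cut after ligand binding, held 1 KO-only and 6 WT-only, and Psenen, a gamma-secretase subunit, had 4 and 2. Of the 30 pathway genes with a known start, 26 had a peak there in both lists, 4 in neither and 0 in 1 list only. By gene ends, Mfng, a Fringe glycosyltransferase gene, was open in KO only, at percentile 10.6, and Hes2 in WT only, at percentile 32.3. Over all genes these calls were made at 1.31% in KO only and 2.47% in WT only.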

How the data were processed

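ATAC-seq libraries of Lap2alpha KO and WT dermal fibroblasts, 3 each, were grouped by the genotype label. Bowtie2 2.5.1, Genrich, deepTools 3.5.1 and build GRCm38 are named, per the submitters' processing notes, with no role or settings. Neither a shift for transposase insertion nor how libraries were combined is given in the sources used here. The authors deposited 1 list per genotype holding a score (ceiling 1000), a signal, a −log10 p-value and a summit for each peak. No scaling of the signal between lists is recorded, so it was ranked within its list. Depth, which bears on the number and width of called peaks, is unknown.

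Peaks were assigned by summit to 21887 protein-coding RefSeq genes and compared by overlap with Python 3.11.15, numpy 2.4.6 and pandas 2.3.3, in code tested on a simulated list. Exons and introns were not told apart. Alternatives changed the overlap rule, the peak threshold, list length, window and gene assignment. The text names every member, its strongest peaks and peaks of 1 list, and pathway genes with the largest differences (up to 4 per direction) or an end open in 1 list, of which 1 is not reported here. The Notch1 width comparison was chosen after its values were seen. The members and lists were chosen with earlier results of these data known.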

Additional observations from a re-analysis of the deposited data

How the results depend on the processing

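With a reciprocal overlap of 50%, 34 peaks were KO-only and 38 WT-only, leaving 73.2% of the KO and 71.0% of the WT peaks shared. With a partner allowed within 1 kb the KO-only count was 6, with 95.3% shared on the KO side. The WT share was 78.7% in the upper 50% by signal, and with a stricter summit p there were 7 KO-only peaks. With lists of equal length there were 10 KO-only and 6 WT-only peaks, the reverse order of the 13 and 15 of the main count. The shared part was then 89.9% of KO and 93.9% of WT peaks. This setting kept the strongest 73554 peaks of either list, so it dropped weak peaks from both. A flank of 10 kb left 6 KO-only and 7 WT-only peaks, the gene span alone 5 and 7 with 77.4% of WT peaks shared, and peaks nearest to the member's own end 7 and 7. These narrower windows hold fewer peaks by construction, and the cause of the other shifts was not tested. Genes open in 1 list only at the start or an end, 2 as reported, numbered 1 in the upper 50% by signal (Notch1, in KO), 0 with equal lists and 1 by gene ends (Dll4), a choice made after the data were seen, as was requiring a covered start base, which left the 2 calls. The difference of KO-only minus WT-only peaks turned to -1 at Jag2 in the upper 50% by signal and to -1 at Jag1 with the stricter summit p, and at Notch1 it stayed above 0 in all 8 alternatives, between 2 and 6. The -3 at Notch3 became 0 in 4 of the 8, and that at Notch4 lay between -5 and 0. No paired analysis was possible because each genotype has 1 combined list, and for the same reason no library could be left out. Depth is unknown and limits every peak of 1 list.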
